A study of Rattus norvegicus with 12 samples.

Results

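Glucocorticoid signalling in the rat striatum was examined through 10 genes of the 17337 in the count table, namely the 2 receptors that bind corticosterone (*Nr3c1* and *Nr3c2*) and 8 genes that glucocorticoids are known to induce (*Zbtb16*, *Fkbp5*, *Sgk1*, *Tsc22d3*, *Klf9*, *Ddit4*, *Pdk4* and *Cdkn1a*). The genes were found in the table by symbol, and all 10 had a row. The list was not independent of these data. It was chosen by gene names with earlier results known, among them the counts of *Zbtb16*, which were far higher in the non-addicted than in the MA12 rats. Values of the 10 genes in non-addicted vs. MA12 are therefore given as a description, without p-values.

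Poly-A RNA of the whole striatum was sequenced in 12 Sprague-Dawley rats, labelled WT, 4 in each of 3 groups. All had self-administered methamphetamine (MA) for 16 days, intravenously according to the methods, which select rats with stable lever pressing for MA12 and MA24. The MA12 rats (21, 31, 4N and 7N) were killed 12 h after the last session, and the MA24 rats (9N, 14N, 15N and 16N) 24 h after it. The third group (rats 9, 11, 12 and 13) is called non-addicted after 16 days of self-administration in the labels. Neither its criterion nor its time of collection is given. Whether these rats were killed at the end of self-administration is therefore not known. No rats labelled as saline rats were analysed here, so by the labels no group without MA enters any comparison.

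Total counts were between 17908962 (MA12 rat 7N) and 23850284 (MA24 rat 9N). The 9 markers of striatal projection neurons were abundant in all 12 libraries, with a summed level of 13507 to 17992 CPM. The numbers of all 4 MA24 rats, of 2 of the 4 MA12 rats and of no non-addicted rat end in N. What N stands for is not given, so groups and kinds of number cannot be fully told apart. Each library is taken as 1 rat, from its number. In bulk tissue, fewer cells of one type and less RNA per cell cannot be told apart.

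Corticosterone, the main glucocorticoid of the rat, is released by the adrenal gland in a daily rhythm and in response to stress. In the cell it binds the glucocorticoid receptor (*Nr3c1*) and, with higher affinity, the mineralocorticoid receptor (*Nr3c2*), which are held ready for the hormone by Hsp90 and its co-chaperones. The bound receptors enter the nucleus and act on genes through glucocorticoid response elements. In the brain, induced genes such as *Fkbp5*, *Sgk1* and *Tsc22d3* are widely used as readouts of this pathway, although each also responds to other signals.

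The core of such an element is an inverted repeat, searched here as ACANNNTGT, which reads the same on both strands. Promoter sequences of RefSeq (build GRCr8), each with 250 bases before and 50 after the gene's start, were found for 8 of the 10 genes, and not for *Zbtb16* or *Nr3c2*. The core was in 1 of their 13 windows, and in 6.86% of all 33469 windows. The window with the match belongs to one start of *Tsc22d3*, the gene of the glucocorticoid-induced leucine zipper (GILZ). It lies at chrX:109065381-109065680 on the minus strand and is shown because it is the match among these genes, with the core in capitals, its first base at position -183 from the start.
*Tsc22d3*: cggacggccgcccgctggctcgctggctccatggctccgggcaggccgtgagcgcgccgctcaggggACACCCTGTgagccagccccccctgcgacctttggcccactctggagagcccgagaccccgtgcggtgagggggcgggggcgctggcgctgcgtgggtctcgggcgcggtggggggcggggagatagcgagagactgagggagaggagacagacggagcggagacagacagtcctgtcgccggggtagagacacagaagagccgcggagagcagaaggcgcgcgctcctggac
A match of these letters is not a binding site. Response elements often lie far from the start, outside such windows.

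Both receptors were expressed in every rat, with little spread. Levels are CPM, the counts scaled to a common library size, after TMM correction, which compares a gene between rats but not with other genes. *Nr3c1* was at 125, 114, 117 and 104 CPM in MA12 rats 21, 31, 4N and 7N. It was at 97.2, 93.6, 106 and 89.1 in MA24 rats 9N, 14N, 15N and 16N, and at 107, 104, 109 and 106 in non-addicted rats 9, 11, 12 and 13. The MA24 levels were thus the lower ones, although MA24 rat 15N reached the level of MA12 rat 7N.

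*Nr3c2* was at 55.5, 43.4, 51.2 and 45.6 CPM in the MA12 rats, at 43.4, 32.5, 45.0 and 35.1 in the MA24 rats and at 45.6, 39.9, 46.3 and 42.5 in the non-addicted rats, in the same order of rats. Again MA24 had the lowest mean, with overlap. In MA24 vs. MA12, the log2FC was -0.25 for *Nr3c1* (SE 0.10, adjusted p = 0.123, edgeR quasi-likelihood test) and -0.33 for *Nr3c2* (SE 0.12, adjusted p = 0.112, same edgeR test), so neither passed the threshold. In non-addicted vs. MA12 the log2FC values were -0.12 (SE 0.09) and -0.17 (SE 0.10). Against MA24, the non-addicted rats had 0.14 (SE 0.07, adjusted p = 0.313) and 0.16 (SE 0.12, adjusted p = 0.492) by edgeR. The first of these comes from a fit without the filter on variance, which had removed *Nr3c1*.

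**Figure D1:**
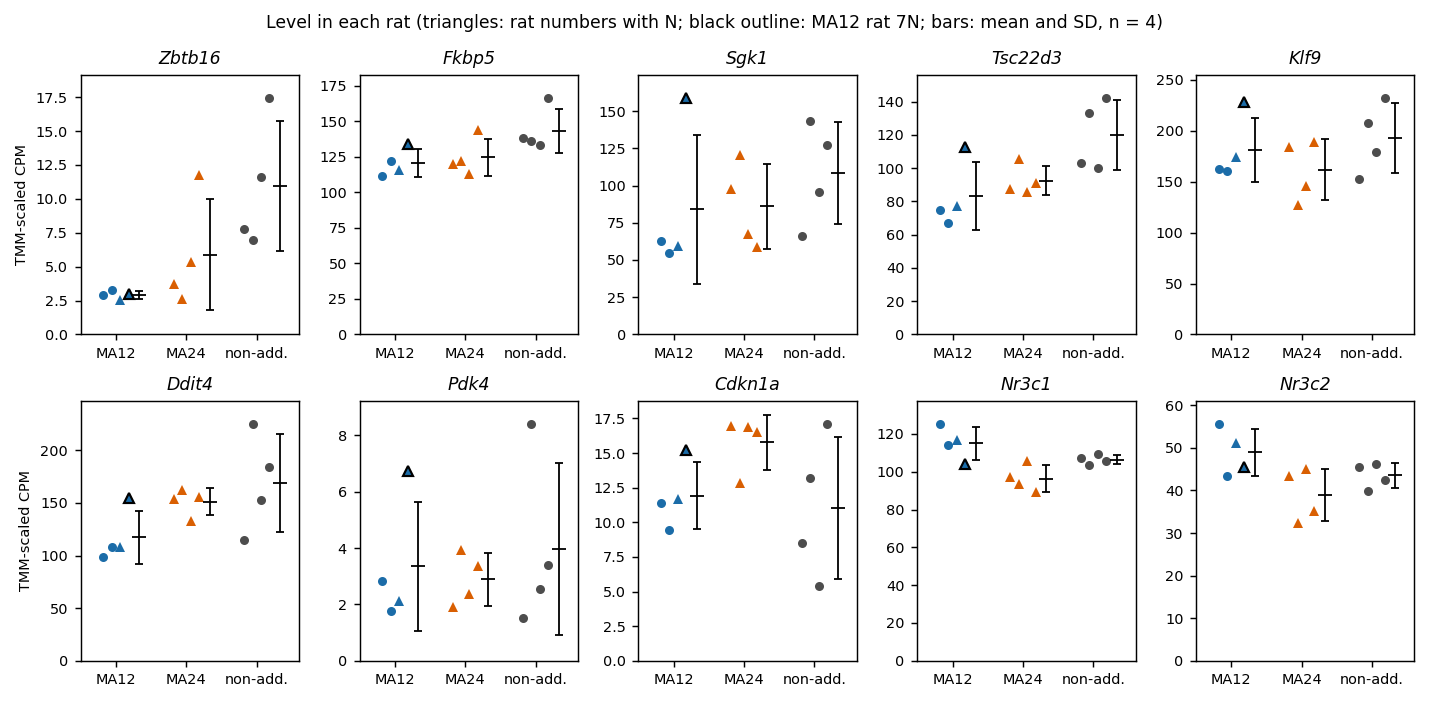
Level of each of the 10 genes in each rat, in TMM-scaled CPM on linear axes from 0, with the mean and SD of each group (n = 4 rats). Triangles are rats whose number ends in N, and the black outline marks MA12 rat 7N, which is the highest MA12 rat for 7 of the 8 induced genes. The 4 MA12 rats lie below all non-addicted rats for *Zbtb16*.

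*Zbtb16*, which encodes the zinc-finger transcription factor PLZF, varied most between rats. It was at 2.90, 3.26, 2.54 and 2.99 CPM in MA12 rats 21, 31, 4N and 7N (53 to 78 counts). In MA24 rats 9N, 14N, 15N and 16N it was at 3.74, 2.61, 5.34 and 11.8 CPM, and in non-addicted rats 9, 11, 12 and 13 at 7.77, 6.96, 11.6 and 17.4. All MA12 rats were low, all non-addicted rats were higher than any of them, and the MA24 rats ran from the MA12 level to within the non-addicted range. Over the 12 rats, the highest level was 6.87 times the lowest.

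The *Zbtb16* log2FC was 1.90 (SE 0.26) in non-addicted vs. MA12, a fold of 3.73. In MA24 vs. MA12 it was 1.0 (SE 0.35), which did not pass (adjusted p = 0.0947, edgeR), and 1 rat decided its size. Without MA24 rat 16N it was 0.41 (adjusted p = 0.453, edgeR), whereas it passed without MA24 rat 9N (adjusted p = 0.0496) or 14N (adjusted p = 0.0347) in the same edgeR test. DESeq2 called it with all rats (adjusted p = 0.0428). In non-addicted vs. MA24 the log2FC was 0.90 (SE 0.35, adjusted p = 0.209, edgeR) and 1.49 without MA24 rat 16N (adjusted p = 0.0770, edgeR).

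*Fkbp5* encodes a co-chaperone that lowers the hormone affinity of the glucocorticoid receptor and so forms a feedback loop. Its levels were 111, 122, 116 and 134 CPM in the MA12 rats, 120, 122, 113 and 144 in the MA24 rats and 138, 136, 133 and 166 in the non-addicted rats. The MA12 and MA24 ranges overlapped almost fully. The non-addicted rats were higher with a narrow overlap, in which MA12 rat 7N and MA24 rat 16N reached them. The log2FC was 0.04 in MA24 vs. MA12 (SE 0.10, adjusted p = 0.832, edgeR), 0.24 in non-addicted vs. MA12 (SE 0.10) and 0.20 in non-addicted vs. MA24 (SE 0.11, adjusted p = 0.332, edgeR).

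*Sgk1*, a kinase that regulates ion channels and transporters, was at 62.9, 54.6 and 59.6 CPM in MA12 rats 21, 31 and 4N but at 159 in MA12 rat 7N, the highest of all 12. It was at 97.7, 120, 67.3 and 58.7 in the MA24 rats and at 66.4, 143, 95.8 and 127 in the non-addicted rats. The group means lay within the spread, with a log2FC of 0.04 in MA24 vs. MA12 (SE 0.27, adjusted p = 0.949, edgeR). It was 0.36 in non-addicted vs. MA12 (SE 0.27) and 0.32 in non-addicted vs. MA24 (SE 0.21, adjusted p = 0.411, edgeR).

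*Tsc22d3* (GILZ, an anti-inflammatory transcriptional regulator) had the same outlying rat. Its levels were 74.9, 67.1, 77.1 and 113 CPM in the MA12 rats, 87.6, 105, 85.9 and 91.0 in the MA24 rats and 103, 133, 100.3 and 142 in the non-addicted rats. Apart from rat 7N, the MA12 rats were below all others. The log2FC was 0.16 in MA24 vs. MA12 (SE 0.14, adjusted p = 0.502, edgeR), 0.52 in non-addicted vs. MA12 (SE 0.15) and 0.37 in non-addicted vs. MA24 (SE 0.12, adjusted p = 0.138, edgeR).

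*Ddit4* encodes REDD1, an inhibitor of the growth kinase complex mTORC1. It was at 98.3, 108, 108 and 155 CPM in the MA12 rats, at 154, 162, 133 and 156 in the MA24 rats and at 115, 225, 152 and 184 in the non-addicted rats. Here too MA12 rats 21, 31 and 4N were below all other rats. The log2FC was 0.37 in MA24 vs. MA12 (SE 0.13, adjusted p = 0.0928, edgeR), 0.52 in non-addicted vs. MA12 (SE 0.17) and 0.15 in non-addicted vs. MA24 (SE 0.15, adjusted p = 0.594, edgeR).

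*Pdk4*, whose product holds back pyruvate oxidation in mitochondria, was scarce, with 29 to 170 counts per library. It was at 2.82, 1.75, 2.11 and 6.72 CPM in the MA12 rats, at 1.89, 3.94, 2.36 and 3.38 in the MA24 rats and at 1.51, 8.39, 2.54 and 3.38 in the non-addicted rats. A single rat of MA12 (7N) and of the non-addicted group (11) stood above the rest of its group. The log2FC was -0.20 (SE 0.38, adjusted p = 0.782, edgeR) in MA24 vs. MA12, 0.24 (SE 0.45) in non-addicted vs. MA12 and 0.45 (SE 0.40, adjusted p = 0.567, edgeR) in non-addicted vs. MA24.

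*Klf9*, a transcription factor, was at 162, 161, 174 and 228 CPM in the MA12 rats, at 184, 127, 146 and 189 in the MA24 rats and at 152, 208, 179 and 232 in the non-addicted rats. The 3 ranges overlapped widely. The log2FC was -0.17 in MA24 vs. MA12 (SE 0.13, adjusted p = 0.467, edgeR), 0.08 in non-addicted vs. MA12 (SE 0.13) and 0.25 in non-addicted vs. MA24 (SE 0.14, adjusted p = 0.342, edgeR).

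*Cdkn1a*, the cell-cycle inhibitor p21, was at 11.4, 9.44, 11.7 and 15.2 CPM in the MA12 rats and at 16.9, 12.8, 16.9 and 16.5 in the MA24 rats. The non-addicted rats were spread from 8.50, 13.2 and 5.41 to 17.1, so that this group held both the lowest and the highest rat of all 12. Among the induced genes *Cdkn1a* was the one with its highest group mean in MA24. The log2FC was 0.41 in MA24 vs. MA12 (SE 0.16, adjusted p = 0.130, edgeR), -0.12 in non-addicted vs. MA12 (SE 0.25) and -0.53 in non-addicted vs. MA24 (SE 0.24, adjusted p = 0.265, edgeR). Without non-addicted rat 13 the last value was -0.82 and passed (adjusted p = 0.0489, edgeR).

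For the other 7 induced genes, the non-addicted group had the highest mean. MA12 had the lowest mean for *Zbtb16*, *Fkbp5*, *Sgk1*, *Tsc22d3* and *Ddit4*, and MA24 for *Klf9* and *Pdk4*. The receptors were ordered differently, with MA12 highest and MA24 lowest. Except for *Zbtb16* between MA12 and the non-addicted rats, the groups overlapped for each gene in each comparison.

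A gene counted as a DEG at a fold of 1.5 or more and an adjusted p under 0.05. In MA24 vs. MA12, 0 of the 10 genes were DEGs by edgeR, where 264 (2.45%) of the 10754 genes tested were. DESeq2 called 1 of the 10 (*Zbtb16*) and 316 of all genes. Unadjusted in edgeR, 5 of the 10 had p below 0.05, against 23.6% of all genes. For 0 of the 10 genes did the 2 groups not overlap, against 15.5% of all genes. The median log2FC of the 10 was 0.04, against -0.02 over all genes tested, and 6 were above 0.

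In non-addicted vs. MA12, 1 of the 10 genes (*Zbtb16*) was a DEG, and 0.251% of the 10758 genes tested were. The same gene was the 1 without overlap, against 7.11% of all genes. Since the list was drawn up with *Zbtb16* in view, nothing is read from these counts. The median log2FC was 0.24, against -0.01 over all genes tested, with 7 of the 10 above 0. Of these log2FC values, that of *Pdk4* turned to -0.42 without non-addicted rat 11, that of *Klf9* to -0.0031 without non-addicted rat 13, and that of *Cdkn1a* to 0.11 without non-addicted rat 12 and 0.037 without MA12 rat 7N. The *Sgk1* value ranged from 0.20 to 0.89 when each rat was left out.

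In non-addicted vs. MA24, 0 of the 9 genes tested were DEGs by edgeR or by DESeq2, where 0.456% of 10744 genes were by edgeR. Unadjusted, 3 had p below 0.05, against 17.5% of all genes. Of the 10 genes, 0 had groups without overlap, against 10% of all genes tested. The median log2FC over all 10 was 0.22, against 0.00 over all genes tested, and 9 were above 0. With a term for the kind of rat number in a fit over all 12 rats, the log2FC was 1.24 for *Sgk1* (SE 0.45), 0.81 for *Tsc22d3* (SE 0.22), 1.41 for *Pdk4* (SE 0.76) and -0.14 for *Cdkn1a* (SE 0.41), all over 1.5 times away from the values above, with adjusted p of 0.947 or more in edgeR. Since every MA24 rat and no non-addicted rat has N, that term is estimated from the MA12 rats alone, rat 7N among them. The 3 comparisons share rats in pairs, so each is not independent of the others.

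**Figure D2:**
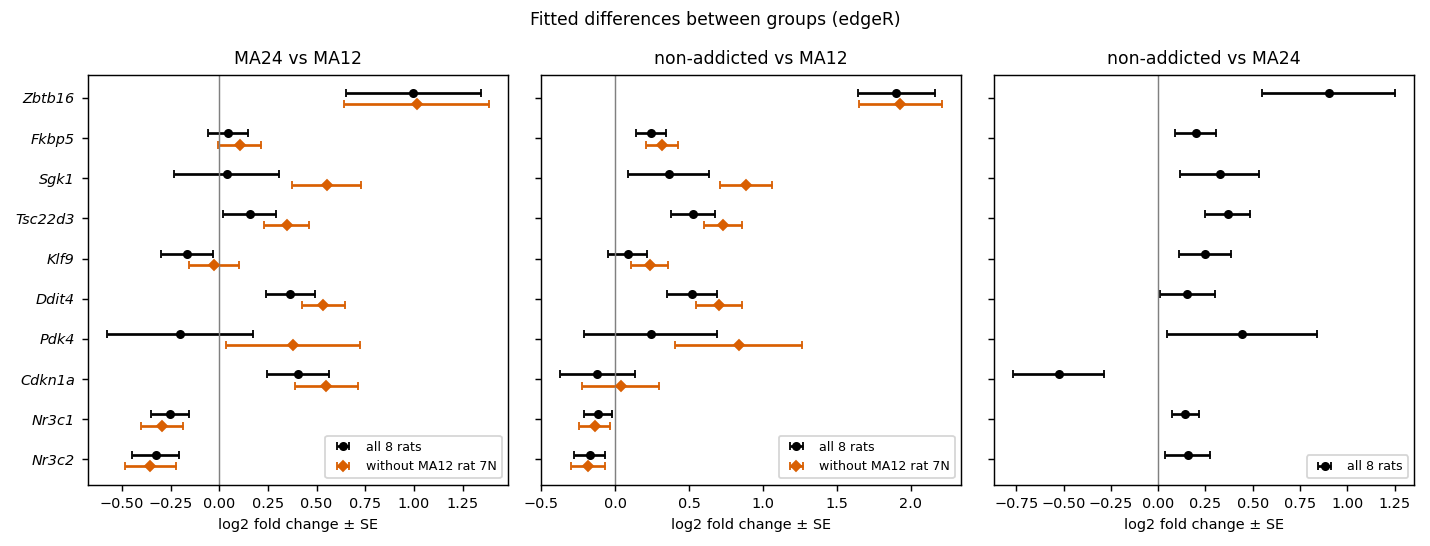
Fitted log2FC of each gene in the 3 comparisons (edgeR, bars are SE), with all 8 rats (black circles) and, where MA12 is involved, without MA12 rat 7N (orange diamonds). Values above 0 are higher in the group named first, and leaving out 7N moves *Sgk1* in MA24 vs. MA12 from 0.04 to 0.55.

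MA12 rat 7N differed from the other 3 MA12 rats across most of the induced genes. It was above all of them for *Fkbp5*, *Sgk1*, *Tsc22d3*, *Klf9*, *Ddit4*, *Pdk4* and *Cdkn1a*, inside their range for *Zbtb16* (2.99 CPM, against 2.54 to 3.26), and below them for *Nr3c1*. Its *Sgk1* level was 2.69 times the mean of the other 3, and its *Pdk4* level 3.01 times. *Tsc22d3* (1.55 times), *Ddit4* (1.48 times), *Cdkn1a* (1.41 times), *Klf9* (1.38 times) and *Fkbp5* (1.15 times) followed. The early-response genes *Dusp1* (1.83 times) and *Errfi1* (1.48 times) and the clock gene *Per1* (1.58 times), all known glucocorticoid targets, were also above the other 3 in this rat. Some other known targets went the opposite way. Rat 7N was the lowest MA12 rat for *Tgm2* (7.23 CPM, against 16.4 to 28.4), *Mertk* (18.6, against 28.2 to 34.4), *Lcn2*, *Il1r1* and *Fam107a*. Glucocorticoid targets were thus not raised in this rat as a whole. Rat 7N had the lowest total count of the series, and the part of that in these values was not tested.

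The other 3 MA12 rats lay close together, at 59.0 ± 4.2 CPM for *Sgk1*, 73.0 ± 5.3 for *Tsc22d3* and 105 ± 5.7 for *Ddit4* (mean ± SD, n = 3). Against them, the log2FC in non-addicted vs. MA12 was 1.93 for *Zbtb16*, 0.89 for *Sgk1* (SE 0.18), 0.73 for *Tsc22d3* (SE 0.13) and 0.70 for *Ddit4* (SE 0.16). With 7N left out, these 4 of the 10 genes were DEGs instead of 1, as were 0.863% of all genes tested. Since 7N was the highest MA12 rat for *Sgk1*, *Tsc22d3* and *Ddit4*, leaving it out widens their differences by itself. The genes were also chosen with this comparison known, so nothing is read from this count. In MA24 vs. MA12 without 7N, 0 of the 10 were DEGs, where 3.65% of all genes tested were. *Ddit4* (log2FC 0.54, adjusted p = 0.00818, edgeR) and *Cdkn1a* (0.55, adjusted p = 0.0471, edgeR) passed on p but stayed under the fold of 1.5. *Sgk1* (0.55, adjusted p = 0.0647) and *Tsc22d3* (0.35, adjusted p = 0.0750) did not pass in that edgeR test, and *Pdk4* changed sign (0.38, adjusted p = 0.519). The choice of 7N was made after its levels were seen.

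**Figure D3:**
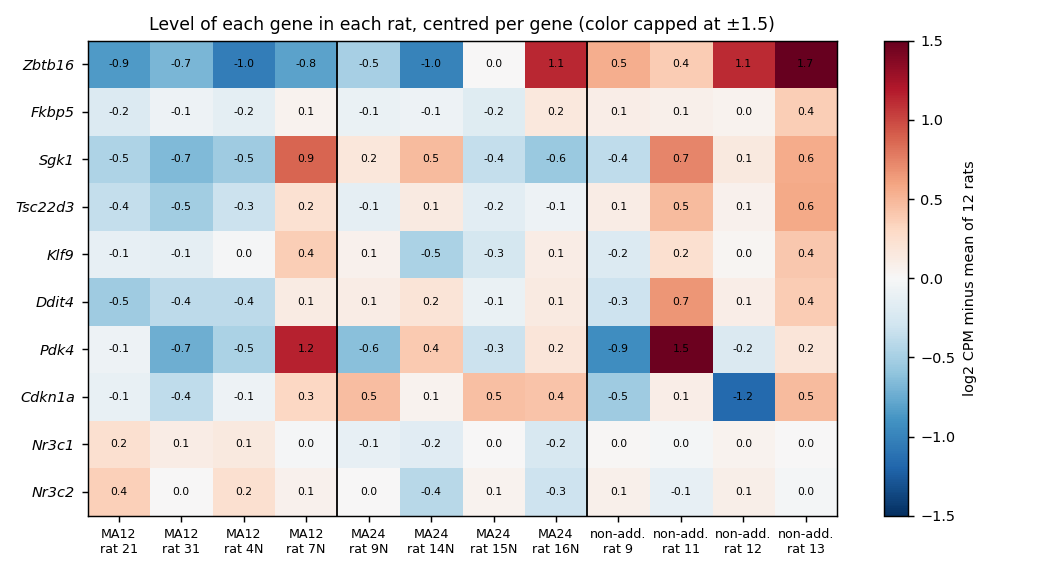
log2 CPM of each gene in each of the 12 rats minus the gene's mean over the 12, with colors from blue (lower) to red (higher). *Zbtb16* is low in all 4 MA12 rats, while *Sgk1*, *Tsc22d3*, *Ddit4* and *Pdk4* are above their means together in MA12 rat 7N, MA24 rat 14N and non-addicted rats 11 and 13.

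Rats within a group also differed in which induced genes were high. Among the MA24 rats, 14N was highest for *Sgk1*, *Tsc22d3*, *Ddit4* and *Pdk4* and lowest for *Zbtb16*, *Klf9* and *Cdkn1a*, whereas 16N was highest for *Zbtb16*, *Fkbp5* and *Klf9* and lowest for *Sgk1*. Among the non-addicted rats, 11 was highest for *Sgk1*, *Ddit4* and *Pdk4* and lowest for *Zbtb16*. Rat 13 was highest for *Zbtb16*, *Fkbp5*, *Tsc22d3*, *Klf9* and *Cdkn1a*.

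Correlations of log2 CPM over the 12 rats are given as a description, since the points share groups, libraries and scaling. The 6 pairs among *Sgk1*, *Tsc22d3*, *Ddit4* and *Pdk4* had Pearson's r from 0.64 to 0.84, and from 0.77 to 0.88 after each group was centred on its mean. *Zbtb16* and *Fkbp5* had r = 0.81 (0.66 after centring). *Zbtb16* and *Sgk1* had r = 0.12 (-0.30 after centring), and *Zbtb16* and *Pdk4* 0.05 (-0.05 after centring). Pairs of *Fkbp5* were not divided in this way, with r = 0.76 for *Tsc22d3* (0.55 after centring), 0.59 for *Ddit4* (0.44) and 0.63 for *Klf9* (0.67). *Zbtb16* had r = 0.56 with *Tsc22d3* and 0.48 with *Ddit4* over the 12 rats, but -0.03 and 0.01 after centring. The receptors moved with each other (r = 0.88, 0.77 after centring). Of the 16 pairs of a receptor with an induced gene, 15 had r below 0, down to -0.63 for *Nr3c1* and *Ddit4*, and all 16 were below 0 after centring.

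**Figure D4:**
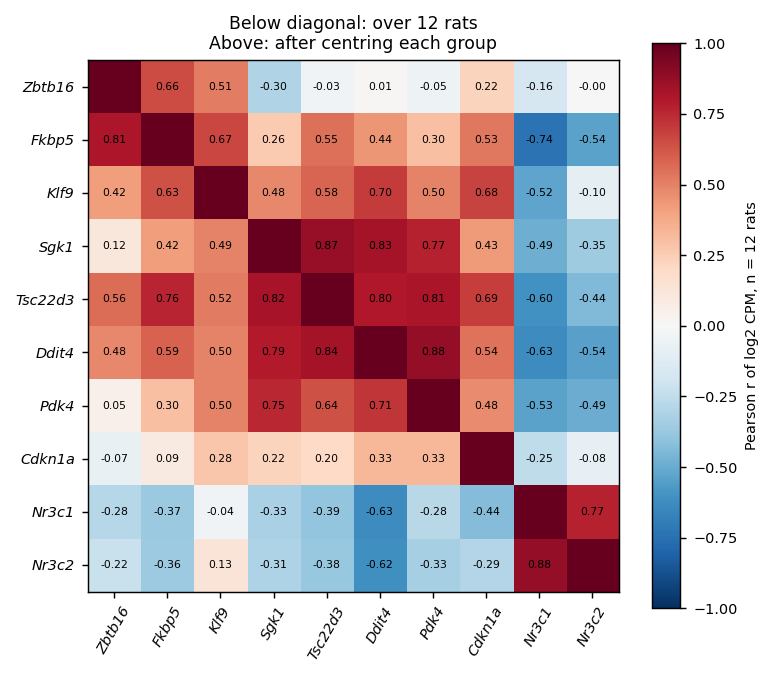
Pearson's r of log2 CPM between the 10 genes (n = 12 rats), over all rats below the diagonal and after centring each group above it. *Sgk1*, *Tsc22d3*, *Ddit4* and *Pdk4* form a red block, *Zbtb16* and *Fkbp5* go together, and the rows of *Nr3c1* and *Nr3c2* are blue against the induced genes but for *Klf9* with *Nr3c2*.

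Among 10765 genes with a mean count of at least 50, the 5 most like *Zbtb16* over the 12 rats were *Rapgef6* (r = 0.87), *Mybbp1a* (0.87), *Nr1d2* (0.84), *Fstl4* (0.83) and *Stk11ip* (0.81). After each group was centred on its mean, these were 0.63, 0.73, 0.50, 0.60 and 0.735. The lowest was that of *Nr1d2*, which encodes the clock repressor REV-ERBβ. The 5 most like *Fkbp5* were *Wee1* (0.89), *Eva1a* (0.88), *Bhlhe40* (0.88), *Gpt2* (0.85) and *Arf2* (0.84), of which *Bhlhe40* encodes another repressor of the clock. After centring, the values for *Fkbp5* were 0.84, 0.88, 0.80, 0.82 and 0.84. The genes were taken as the highest of many values and carry no test.

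Clock genes differed between the same groups. *Per2*, part of the repressor arm of the clock, had a log2FC of 0.96 in MA24 vs. MA12 (adjusted p = 0.0141, edgeR) and 1.04 in non-addicted vs. MA12 (adjusted p = 0.0128, edgeR). *Ciart*, also a clock repressor, rose by 0.98 (adjusted p = 0.00558) and 1.0 (adjusted p = 0.0283) on the log2 scale in these edgeR comparisons. *Arntl*, which encodes the activator BMAL1, fell by 0.61 (adjusted p = 0.00605) and 0.60 (adjusted p = 0.0132). The output gene *Dbp* was a DEG in MA24 vs. MA12 (0.66, adjusted p = 0.00558) and not in non-addicted vs. MA12 (0.49, adjusted p = 0.112). Between non-addicted and MA24 rats, 0 of *Per1*, *Per2*, *Ciart*, *Dbp* and *Arntl* were DEGs, with adjusted p from 0.430 to 0.968 by edgeR, and *Arntl* came from the fit without the variance filter. The mean of 12 clock genes, as log2 CPM centred per gene, was from -0.24 to -0.02 in MA12, where rat 7N was highest, from -0.02 to 0.19 in MA24 and from 0.08 to 0.14 in the non-addicted rats. This list holds genes that moved in opposite directions, such as *Per2* and *Arntl*. Their changes partly cancel in the mean, which is no measure of clock phase. Where sessions are held at one time of day, rats killed 12 h and 24 h after one are also killed at opposite times of day. Abstinence and time of day therefore cannot be told apart for the glucocorticoid genes of MA12 and MA24, and for the non-addicted rats the hour of collection is unknown.

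Vascular markers moved with the groups too. The mean of 7 mural markers, as log2 CPM centred per gene, was from -0.04 to 0.64 in MA12, from -0.10 to 0.18 in MA24 and from -0.77 to -0.19 in the non-addicted rats. The mean of 9 endothelial markers was from -0.04 to 0.29, from 0.11 to 0.24 and from -0.50 to 0.02. Their summed level was 530 to 676 CPM in MA12, 628 to 683 in MA24 and 405 to 579 in the non-addicted rats, and 110.6 to 287 CPM over all rats for the mural markers. Rat 7N had the lowest mural (-0.04) and endothelial (-0.04) means of MA12. Each of these markers had more than 3 counts in at least 1 rat, while *Slco1a4* gave no value. On the same scale the choroid plexus list was from -0.92 to 0.54 in MA12, from -0.87 to -0.13 in MA24 and from -0.34 to 1.70 in the non-addicted rats, and the ependymal list from -0.75 to 0.56, from -0.75 to 0.01 and from -0.26 to 0.97. Lists of astrocytes (-0.40 to 0.24) and microglia (-0.45 to 0.34) overlapped between the 3 groups, and oligodendrocyte markers were from -0.36 to 0.34 in MA12, from 0.10 to 0.37 in MA24 and from -0.48 to 0.08 in the non-addicted rats. The non-addicted rats, in which *Zbtb16* was highest, had the lowest vascular levels, and the part of cell composition in the values of the glucocorticoid genes was not tested.

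The wider pathway was followed in a list of 68 other genes, of which 63 had a row. In MA24 vs. MA12, 3 of the 50 tested were DEGs, 1 up and 2 down, against 2.45% of all genes tested, and the median log2FC of the 50 was 0.08. *Angptl4*, whose secreted product inhibits lipoprotein lipase, was at 4.97 to 7.06 CPM in MA12 and 8.48 to 12.2 in MA24, without overlap (log2FC 0.80, SE 0.18, adjusted p = 0.0197, edgeR). The call was lost when MA12 rat 21 (0.0536), MA12 rat 31 (0.0523) or MA24 rat 14N (0.0653) was left out. *Ncoa2*, a coactivator of steroid receptors, was at 34.6 to 45.4 CPM in MA12 and 17.98 to 31.8 in MA24, again without overlap (log2FC -0.68, SE 0.14, adjusted p = 0.0144, edgeR). Without MA24 rat 14N its log2FC was -0.54, under the fold of 1.5. Both calls also ended with a term for the kind of rat number in the fit (adjusted p = 0.165 for *Angptl4* and 0.151 for *Ncoa2*, edgeR) and among rats numbered with N (0.162 and 0.102).

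*Crhr2*, a receptor for corticotropin-releasing peptides, was the other DEG (log2FC -3.36, SE 0.85, adjusted p = 0.0276, edgeR). It had 114, 16, 5 and 9 counts in MA12 rats 21, 31, 4N and 7N and 4, 1, 3 and 4 in the MA24 rats, so the fitted value is no measure of the size. Without MA12 rat 21 it was -1.64 (adjusted p = 0.296, edgeR). Without MA24 rat 14N (0.0645), 15N (0.0621) or 16N (0.0598) the adjusted p of the same edgeR test was also above the threshold, as it was without the variance filter (0.0584), with all 12 rats in one fit (0.0528), with a term for the kind of rat number (0.603) and among rats numbered with N (0.582). DESeq2 gave it no adjusted p. MA12 rat 21 also had the highest mean of 5 choroid plexus markers in its group (0.54, against -0.92 to 0.01), and the part of that tissue was not tested.

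By role, 0 of 7 genes of steroid supply and removal, 1 of 8 chaperones and co-regulators (*Ncoa2*), 1 of 5 stress-axis genes (*Crhr2*) and 1 of 30 other induced genes (*Angptl4*) were DEGs in MA24 vs. MA12. *Per1* (log2FC 0.49, adjusted p = 0.105), *Dusp1* (-0.26, adjusted p = 0.354) and *Errfi1* (-0.02, adjusted p = 0.952) did not pass in edgeR. *Hsp90aa1*, the inducible Hsp90, had a log2FC of -0.40 (adjusted p = 0.0783, edgeR), and *Hsp90ab1* and the co-chaperone *Fkbp4*, from the fit without the variance filter, had -0.01 (adjusted p = 0.971) and -0.02 (adjusted p = 0.922). *Hsd11b1*, whose enzyme regenerates active glucocorticoid, had -0.17 (adjusted p = 0.310, edgeR). Without MA12 rat 7N, when DEGs over all genes also went from 2.45% to 3.65%, 8 genes of the list were DEGs, among them *Per1* (0.69, adjusted p = 0.0154), *Gpd1* (0.69, adjusted p = 0.0166), *Cebpb* (0.64, adjusted p = 0.0167) and *Nfkbia* (0.61, adjusted p = 0.0358) upward and *Lcn2* downward (-1.71, adjusted p = 0.0410) in edgeR.

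In non-addicted vs. MA12, 1 of 53 was a DEG, against 0.251% of all genes tested. *Mt1a*, a metal-binding metallothionein, was at 26.6 to 39.6 CPM in the non-addicted rats and at 15.6 to 23.8 in MA12 (log2FC 0.75, SE 0.14, adjusted p = 0.0383, edgeR). A term for the kind of rat number ended the call (adjusted p = 0.200, edgeR), as did taking the rats numbered without N (0.0823). It was also lost without any one of non-addicted rats 9 (0.0821), 11 (0.0545) and 12 (0.0736) or MA12 rats 21 (0.0772) and 4N (0.0946). *Per1* had a log2FC of 0.52 (adjusted p = 0.258) and *Hsd11b1* of -0.39 (adjusted p = 0.161, edgeR), while *Hsp90aa1* had -0.34 (adjusted p = 0.275). Values of *Dusp1* (-0.18), *Errfi1* (0.06), *Fkbp4* (0.02) and *Hsp90ab1* (0.09, without the variance filter) were nearer 0, with adjusted p from 0.674 to 0.967. The median over the 53 genes was 0.03. Without MA12 rat 7N, when 0.863% of all genes were DEGs, 6 of the list were, of which *Hif3a* (2.10, adjusted p = 0.0342), *Gpd1* (1.03, adjusted p = 0.0159), *Mt1a* (0.76), *Per1* (0.74) and *Cebpb* (0.59) were up and *Tgm2* (-0.99, adjusted p = 0.0179) was down in edgeR.

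In non-addicted vs. MA24, 0 of 54 genes of the list were DEGs by edgeR, against 0.456% of all genes, with a median log2FC of 0.05. DESeq2 called 1, *Crhr2* (log2FC 3.21, adjusted p = 0.0107), which edgeR did not (3.16, adjusted p = 0.0803). It had 24, 73, 11 and 3 counts in non-addicted rats 9, 11, 12 and 13, beside the few in MA24, and passed in edgeR without non-addicted rat 13 (adjusted p = 0.00817). Of the others named, *Per1* (0.03, adjusted p = 0.932), *Dusp1* (0.09, adjusted p = 0.862), *Errfi1* (0.07, adjusted p = 0.728), *Hsp90aa1* (0.07, adjusted p = 0.821) and *Hsd11b1* (-0.22, adjusted p = 0.338) did not pass in edgeR. *Hsp90ab1* (0.10, adjusted p = 0.386) and *Fkbp4* (0.04, adjusted p = 0.838) are from the fit without the variance filter.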

How the data were processed

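Total RNA of the striatum of 12 rats was made into poly-A libraries. Per the labels, the authors' notes name cutadapt 1.18, STAR 2.7.0e, featureCounts, HTSeq 0.12.4 and build rn6. The deposited values are raw counts per gene symbol, without normalization. The handling of strands and of reads with several positions is not given in the sources used here, so counts of overlapping genes are uncertain. Each rat gave 1 library, and of the 12 columns 0 pairs were identical.

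In each comparison of 8 libraries, genes had to average more than 4 counts, and the least variable 15% on the TMM-scaled log2 CPM scale were then dropped, one reading of the study's filters. Groups were compared with edgeR 4.0.16 (R 4.3.3) by glmQLFit and glmQLFTest, with Benjamini-Hochberg adjustment over all genes tested. DEGs had an adjusted p below 0.05 and a fold of at least 1.5. Genes removed by the variance filter take their values from a fit without it. log2 CPM had a prior count of 2. Counts with changes put in were drawn to check the fit. DESeq2 1.42.0, the likelihood ratio test, other filters and factors, all rats in one fit, the kind of rat number and each rat left out were tried as alternatives. Ranking variance without TMM was added after seeing the data.

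The genes, the pathway, clock and marker lists and the naming rule were chosen with earlier results of these data known. The rule named all 10 genes, pathway genes called in any comparison, *Per1*, *Dusp1*, *Errfi1*, *Hsd11b1*, *Fkbp4*, *Hsp90aa1* and *Hsp90ab1*, 5 clock genes, and the 5 genes most like *Zbtb16* and *Fkbp5*. Pathway genes named for their level in rat 7N, or from fits without it, were chosen after their values were seen. The rn6 sequence was not used here, and promoter coordinates are GRCr8. Analyses used Python with pandas and numpy.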

Additional observations from a re-analysis of the deposited data

Results flagged for a closer look

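Each gene's highest and lowest rat was compared with the rest of its group by Dixon's ratio, the gap to the nearest rat divided by the range of the group, for 30 combinations of gene and group. Chance alone would pass Dixon's 95% critical value for groups of 4 in about 1 of 20 combinations, or 1.5 of 30, and it was passed 3 times. *Sgk1* in MA12 rat 7N lay above its group (159 CPM, ratio 0.867). *Fkbp5* in non-addicted rat 13 lay above its group (166 CPM, ratio 0.830), only just past the limit. *Cdkn1a* in MA24 rat 14N lay below its group (12.8 CPM, ratio 0.911).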

How the results depend on the processing

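The number of DEGs among the 10 genes in MA24 vs. MA12 was 1 with DESeq2 and 0 to 1 when each rat was left out. In non-addicted vs. MA12 it was 0 with a covariate for rat numbers with or without N, 4 with rats numbered without N, and 1 to 4 with each rat left out (4 without MA12 rat 7N). In non-addicted vs. MA24 it was 0 to 1 with each rat left out. The *Zbtb16* log2FC in non-addicted vs. MA12 was 1.6 to 2.07 over 18 alternatives. That of *Pdk4* (-0.42 to 0.83), *Cdkn1a* (-0.40 to 0.11) and *Klf9* (-0.0031 to 0.27) took both signs. In MA24 vs. MA12 the covariate turned *Fkbp5* (-0.011), *Sgk1* (-0.35) and *Tsc22d3* (-0.045), and the rats numbered with N alone turned *Sgk1* (-0.33) and *Tsc22d3* (-0.030). Leaving out one rat gave -0.17 to 0.55 for *Sgk1* and -0.42 to 0.38 for *Pdk4*. In non-addicted vs. MA24 it gave -0.012 to 0.30 for *Ddit4* and -0.22 to 0.71 for *Pdk4*, both lowest without rat 11, and there the covariate moved *Sgk1* to 1.24, *Tsc22d3* to 0.81, *Klf9* to 0.59, *Ddit4* to 0.52, *Pdk4* to 1.41, *Fkbp5* to 0.32 and *Cdkn1a* to -0.14, with adjusted p of at least 0.947. Every MA24 rat and no non-addicted rat has a number with N, so the covariate is estimated from the MA12 rats alone. Rat 7N is among the 2 MA12 rats with N, and was above the MA12 rats other than itself for each gene named for this covariate shift. It had 159 CPM for *Sgk1*, against 54.6 to 62.9 in them, and 6.72 for *Pdk4*, against 1.75 to 2.82. How much of each shift came from 7N was not tested, nor was the cause of the other changes.

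For the pathway list, MA24 vs. MA12 gave 5 DEGs with the likelihood ratio test, 0 with the covariate, 0 with rats numbered with N and 0 to 8 with each rat left out. Non-addicted vs. MA12 gave 3 with DESeq2, 2 with the likelihood ratio test, 3 with rats numbered without N, and 0 without the variance filter, without any filter, with 10 counts in every library, with the covariate or with variance ranked without TMM, and 0 to 6 with each rat left out. Non-addicted vs. MA24 gave 1 by DESeq2, 2 by the likelihood ratio and 0 to 3 with each rat left out. Over all genes, MA24 vs. MA12 gave 264 DEGs, but 316 with DESeq2 and 380 with the likelihood ratio test. It gave 4 with the covariate, 116 with rats numbered with N and 129 to 436 with each rat left out. Non-addicted vs. MA12 gave 27 over all genes, but 0 with the covariate and 93 without MA12 rat 7N. Since the number over all genes also changed with the setting, nothing is read from the counts of the 10 genes or of the pathway list under the alternatives. With 53 to 78 counts in MA12, *Zbtb16* is limited by depth more than the other genes apart from *Pdk4*. No paired analysis was possible because the groups share no rat numbers.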
